A study of Homo sapiens with 3 samples.

Results

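The genes described here are 5 mucins (MUC1, MUC5B, MUC13, MUC16 and MUC20) and 3 members of the carcinoembryonic antigen family (CEACAM1, CEACAM5 and CEACAM6). They were found by symbol in the deposited expression table. All 8 were present, each on 1 row, among 30866 distinct symbols. The table comes from HCC827, an established human lung adenocarcinoma line that depends on a mutant EGF receptor. The cells had been transduced with ClonTracer, a DNA barcode library, and kept as a polyclonal pool. The dual-resistant population was obtained from the erlotinib-resistant one by adding 0.2 µM crizotinib, a MET inhibitor, to 2 µM erlotinib for 10 days. The erlotinib-resistant population had been grown for 47 days in 2 µM erlotinib, which blocks the EGF receptor kinase. The vehicle population was given 0.1% DMSO for 4 days. Each population is 1 library, so the values carry no replicate error, no difference was tested, and drug, duration and selected subpopulation cannot be told apart.

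Mucins are large glycoproteins whose serine- and threonine-rich stretches carry dense O-linked sugars. Secreted mucins such as MUC5B form the airway mucus gel, while MUC1, MUC13, MUC16 and MUC20 are anchored in the cell membrane and cover its outer face. CEACAM proteins are adhesion molecules of the immunoglobulin superfamily. CEACAM5, the carcinoembryonic antigen measured in serum as a tumour marker, and CEACAM6 are held by a glycolipid anchor, whereas CEACAM1 crosses the membrane and its long form carries inhibitory tyrosine motifs in the cytoplasm.

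Levels are FPKM (fragments per kilobase of transcript, scaled to the mapped fragments of the library), which can be set beside each other between genes. A difference is the log2 difference of FPKM + 1 between 2 libraries, and a gene is called higher or lower at a log2 difference of 1 or more by size alone. Only genes that reached 1 FPKM in 1 or more libraries were compared, a level that all 8 genes reached in both the erlotinib-resistant and the vehicle cells. The FPKM columns summed to 494817 in dual-resistant cells, 528919.6 in erlotinib-resistant cells and 596084 in vehicle cells. The table gives no counts. By a rough estimate from the lowest values of single-exon genes, a single fragment on 1 kb of transcript corresponded to 0.0232 FPKM in dual-resistant cells, 0.0211 in erlotinib-resistant cells and 0.0146 in vehicle cells. On that estimate, and with the longest coding transcript in GENCODE 29 as the length, the lowest values of these genes, those of MUC13, MUC20, MUC5B and CEACAM5 in dual-resistant cells, rested on about 59.1, 62.2, 64.6 and 96.7 fragments.

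All 8 genes were lowest in dual-resistant cells, and highest in vehicle cells in the deposited values, an order that turned round between erlotinib-resistant and vehicle cells for MUC5B and MUC20 when the FPKM sums of the libraries were made equal. Their summed level was 24.2 FPKM in dual-resistant cells, 140.2 FPKM in erlotinib-resistant cells and 384 FPKM in vehicle cells. The median of the 8 was 0.985, 15.4 and 35.1 FPKM in the same order. The 3 CEACAM genes together stood at 6.74 FPKM in dual-resistant cells and 39.1 FPKM in erlotinib-resistant cells, which are 3.83% and 22.2% of their 176 FPKM in vehicle cells. The 5 mucins kept a larger share, with 17.4 FPKM in dual-resistant cells and 101 FPKM in erlotinib-resistant cells, or 8.37% and 48.5% of 208 FPKM in vehicle cells. In these bulk libraries, fewer cells expressing a gene and less of its RNA per cell cannot be told apart.

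**Figure D1:**
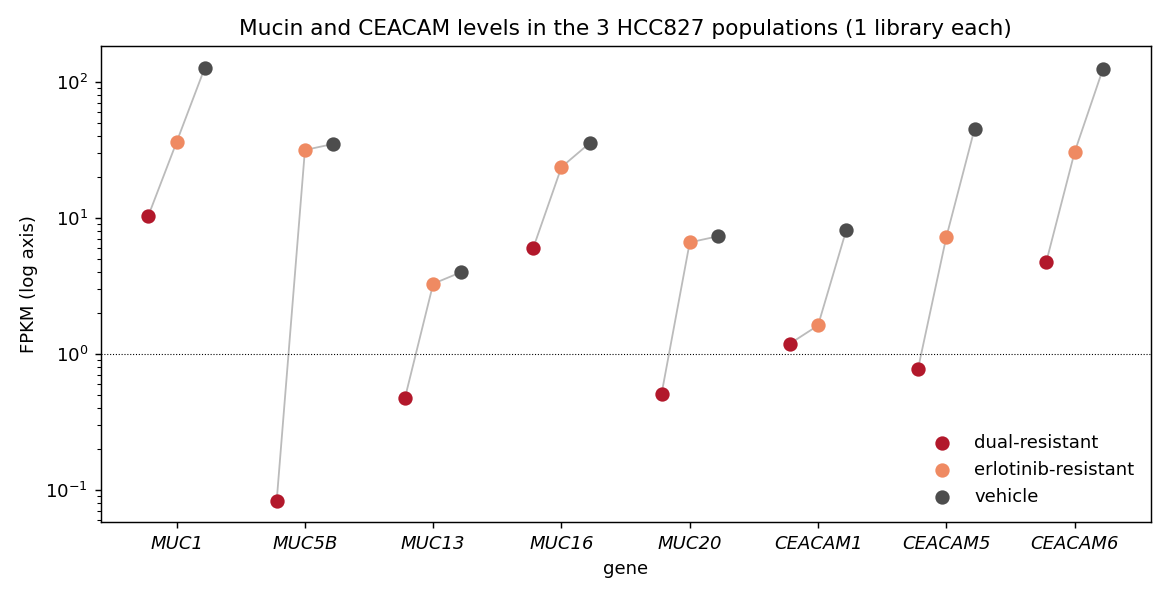
FPKM of each gene on a log axis in the dual-resistant (left, red), erlotinib-resistant (middle, orange) and vehicle (right, grey) libraries, 1 point per library, with a dotted line at 1 FPKM. MUC5B, MUC13, MUC20 and CEACAM5 lie under 1 FPKM in dual-resistant cells, MUC5B lowest at 0.0838 FPKM.

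In erlotinib-resistant cells, 4 of the 8 genes were lower than in vehicle cells and none higher, where 6.03% of the 13381 genes compared were lower and 3.81% higher. The 4 were the 3 CEACAM genes and MUC1. In dual-resistant cells, relative to erlotinib-resistant cells, 7 of 8 were lower and none higher, where 7.22% of the 13385 genes compared were lower and 10.1% higher. CEACAM1 was the exception. In dual-resistant cells, relative to vehicle cells, all 8 were lower, 7 of them by a log2 difference of 2 or more, where 10.4% of 13378 genes compared were lower by 1 or more, 3.50% were lower by 2 or more and 11.0% were higher by 1 or more. The median log2 difference of the 8 genes was -1.17 for erlotinib-resistant minus vehicle, against 0.00 over all genes. It was -2.01 for dual-resistant minus erlotinib-resistant, against -0.03, and -2.98 for dual-resistant minus vehicle, against -0.01. With the FPKM sums of the libraries made equal, higher genes made up 53.7% of all genes called for erlotinib-resistant minus vehicle, against 38.7% as deposited, and 66.1% for dual-resistant minus vehicle, against 51.3%, and each of the 8 genes stayed on the same side of the limit. The 3 comparisons share libraries, and the genes were chosen with earlier results of these data known, so these counts describe the 8 genes and support nothing further.

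The 8 genes divided by the step at which they were lower. The log2 difference between dual-resistant and vehicle cells is the sum of that of the erlotinib-resistant step and that of the crizotinib step. The erlotinib-resistant step made up 87.4% of it for CEACAM1, 53.0% for CEACAM5, 51.1% for MUC1 and 44.9% for CEACAM6. It made up 23.8% for MUC16 and 12.8% for MUC13. For MUC20 and MUC5B no share is given, since their difference at the erlotinib-resistant step, -0.13 and -0.14, became 0.02 and 0.03 with equal FPKM sums. CEACAM1 was thus lower mostly in erlotinib-resistant cells, CEACAM5, CEACAM6 and MUC1 were lower at both steps, and MUC16, MUC13, MUC20 and MUC5B were lower mostly in dual-resistant cells. The order within the middle group depends on the added constant. With 0.1 FPKM added, CEACAM5 differed by -3.05 at the crizotinib step and by -2.62 at the erlotinib-resistant step, and MUC1 by -1.79 and -1.81 at the same steps.

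**Figure D2:**
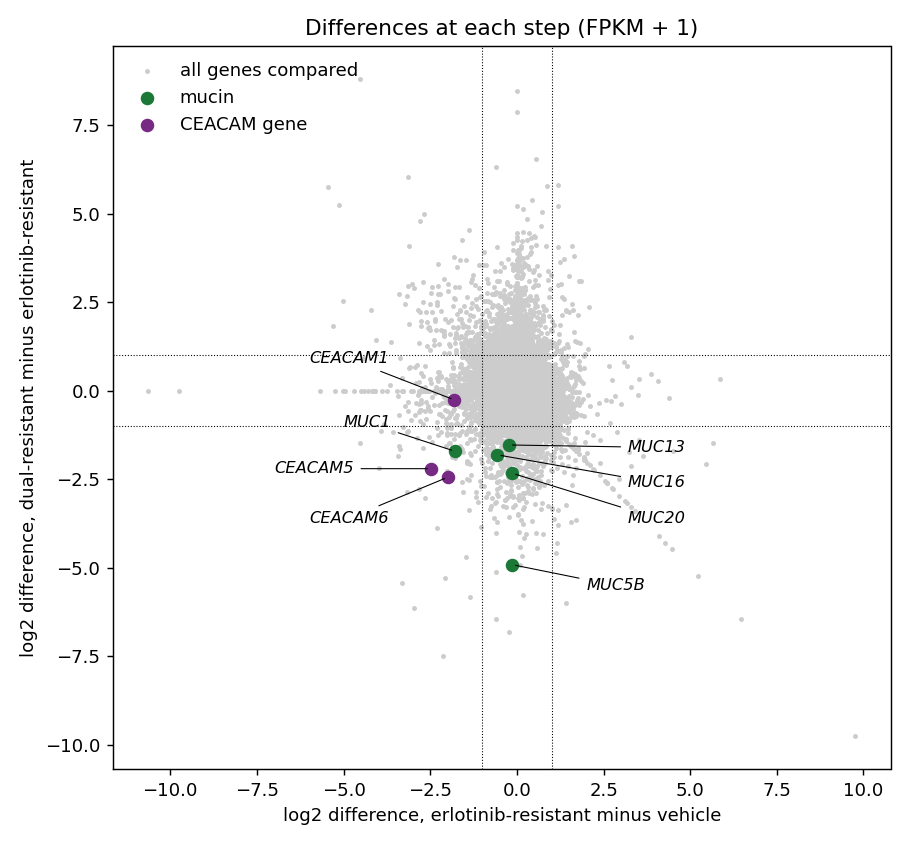
Log2 differences of FPKM + 1 for erlotinib-resistant minus vehicle (horizontal) and dual-resistant minus erlotinib-resistant (vertical), with grey points for all genes compared, green for the mucins, purple for the CEACAM genes and dotted lines at the limits of 1 in either direction. Both axes use erlotinib-resistant cells, so they are not independent. CEACAM5, CEACAM6 and MUC1 lie beyond the limit on both axes, CEACAM1 on the horizontal axis alone and the other mucins on the vertical axis alone.

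MUC5B, the gel-forming mucin of airway secretory cells and submucosal glands (Entrez ID 727897), showed the widest gap. It stood at 0.0838 FPKM in dual-resistant cells, 31.5 FPKM in erlotinib-resistant cells and 34.9 FPKM in vehicle cells. It was second among the 8 genes in erlotinib-resistant cells and last in dual-resistant cells, where its FPKM was 0.266% of that in erlotinib-resistant cells. The log2 difference was -4.91 for dual-resistant minus erlotinib-resistant and -0.14 for erlotinib-resistant minus vehicle, which became 0.03 with equal FPKM sums. With 0.1 FPKM added in place of 1, the difference between dual-resistant and erlotinib-resistant cells was -7.43, since the added constant holds down the difference of a gene so low. The MUC5B row covers 131827 bases (chromosome 11, 1151580 to 1283406, GRCh37), while RefSeq gives the gene 39107 bases on GRCh38. MUC5AC, the gel-forming mucin gene beside it, has no row under its own symbol in the deposited values. Whether its fragments entered the MUC5B row was not tested, so every value given here for MUC5B is that of the whole row. A short unnamed transcript inside the span of that row, uc009ycs, lies at 1220625 to 1222366. It stood at 0.0164 FPKM in dual-resistant cells, 4.32 in erlotinib-resistant cells and 2.29 in vehicle cells. Whether it belongs to MUC5B itself was not tested, so its values are not a second reading of that gene.

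MUC1, a membrane mucin whose cytoplasmic tail is a substrate of the EGF receptor (Entrez ID 4582, chromosome 1, 155158300 to 155162706, GRCh37), was the highest of the 8 genes in every library. It stood at 10.4 FPKM in dual-resistant cells, 36.1 FPKM in erlotinib-resistant cells and 127 FPKM in vehicle cells. Among the genes compared it lay at percentile 49.6 in dual-resistant cells, 81.8 in erlotinib-resistant cells and 94.9 in vehicle cells. Each step left a similar part of it. Erlotinib-resistant cells had 28.5% of the FPKM of vehicle cells, and dual-resistant cells 28.7% of the FPKM of erlotinib-resistant cells.

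MUC16, which carries the ovarian tumour antigen CA125 (Entrez ID 94025, chromosome 19, 8959520 to 9092018), stood at 6.01 FPKM in dual-resistant cells, 23.6 FPKM in erlotinib-resistant cells and 35.4 FPKM in vehicle cells. Its log2 difference was -1.81 for dual-resistant minus erlotinib-resistant and, within the limit, -0.56 for erlotinib-resistant minus vehicle. The MUC5B to MUC16 ratio of FPKM was 0.0139 in dual-resistant cells, 1.33 in erlotinib-resistant cells and 0.984 in vehicle cells. The FPKM of these rows were thus near each other except in dual-resistant cells. The MUC16 row covers 132499 bases, while RefSeq gives the gene 216908 bases on GRCh38. What the spans of both rows do to the ratio was not tested.

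MUC13, a membrane mucin with EGF-like domains (Entrez ID 56667, chromosome 3, 124624289 to 124653595), was low throughout, at 0.476 FPKM in dual-resistant cells, 3.28 FPKM in erlotinib-resistant cells and 4.00 FPKM in vehicle cells. The log2 difference was -1.53 for dual-resistant minus erlotinib-resistant, and -2.55 with 0.1 FPKM added. For dual-resistant minus vehicle it was -1.76, and -2.83 with 0.1 FPKM added.

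MUC20 is a membrane mucin reported to bind MET and to dampen part of its signalling (Entrez ID 200958, chromosome 3, 195447753 to 195464540). It stood at 0.508 FPKM in dual-resistant cells, 6.60 FPKM in erlotinib-resistant cells and 7.33 FPKM in vehicle cells. The log2 difference was -2.33 for dual-resistant minus erlotinib-resistant and -0.13 for erlotinib-resistant minus vehicle, which became 0.02 with equal FPKM sums. MET itself, at 96.2 FPKM in dual-resistant cells, 763 FPKM in erlotinib-resistant cells and 98.9 FPKM in vehicle cells, was thus near the same level in dual-resistant cells, where MUC20 was lowest, and in vehicle cells, where MUC20 was highest. RefSeq lists a related pseudogene, MUC20P1, on chromosome 3, and how the authors' counting divided fragments between such copies is unstated in the sources at hand. An unnamed transcript within the MUC20 span, uc011bte, stood at 0.307 FPKM in dual-resistant cells, 11.5 FPKM in erlotinib-resistant cells and 15.5 FPKM in vehicle cells.

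CEACAM5 (Entrez ID 1048, chromosome 19, 42212530 to 42234437) stood at 0.781 FPKM in dual-resistant cells, 7.21 FPKM in erlotinib-resistant cells and 44.9 FPKM in vehicle cells. It was the gene furthest below vehicle in erlotinib-resistant cells, with a log2 difference of -2.48, and its dual-resistant level was 1.74% of the vehicle level in FPKM. CEACAM6 (Entrez ID 4680, chromosome 19, 42259398 to 42276113) stood at 4.77 FPKM in dual-resistant cells, 30.3 FPKM in erlotinib-resistant cells and 123 FPKM in vehicle cells, close to the 127 FPKM of MUC1 there. Its log2 difference was -2.44 for dual-resistant minus erlotinib-resistant and -1.99 for erlotinib-resistant minus vehicle. CEACAM6 was the higher of the pair in every library, by a ratio of FPKM of 6.11 in dual-resistant cells, 4.20 in erlotinib-resistant cells and 2.74 in vehicle cells.

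CEACAM1 (Entrez ID 634, chromosome 19, 43011458 to 43032661) followed another course. It stood at 1.19 FPKM in dual-resistant cells, 1.62 FPKM in erlotinib-resistant cells and 8.12 FPKM in vehicle cells. The log2 difference was -1.80 for erlotinib-resistant minus vehicle and, within the limit, -0.26 for dual-resistant minus erlotinib-resistant. Dual-resistant cells kept 73.3% of the erlotinib-resistant FPKM of CEACAM1, against 10.8% for CEACAM5 and 15.7% for CEACAM6. The CEACAM5 to CEACAM1 ratio of FPKM was 0.657 in dual-resistant cells, 4.44 in erlotinib-resistant cells and 5.53 in vehicle cells. The CEACAM genes are close relatives, and how the authors' counting divided fragments that match more than 1 of them is unstated in the sources at hand.

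The order of the 8 genes by FPKM differed between the libraries, with no error to say which neighbours in it differ. In dual-resistant cells it ran MUC1, MUC16, CEACAM6, CEACAM1, CEACAM5, MUC20, MUC13 and MUC5B. In erlotinib-resistant cells it ran MUC1, MUC5B, CEACAM6, MUC16, CEACAM5, MUC20, MUC13 and CEACAM1. In vehicle cells it ran MUC1, CEACAM6, CEACAM5, MUC16, MUC5B, CEACAM1, MUC20 and MUC13. CEACAM1 was last in erlotinib-resistant cells and ranked 4 in dual-resistant cells, although its own FPKM was lower there.

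Sequences upstream of the transcription start were taken from RefSeq (GRCh38.p14), whose promoter table holds 6 of the 8 genes, and the first listed start of each gene was used. The 250 bases before the start of the CEACAM genes are shown because these genes lie in 1 region of chromosome 19 and 2 of the 3 were lower at both steps. Capitals mark runs of 6 or more bases that were the same in all 3 when aligned with MAFFT. The CEACAM5 stretch is chr19:41708376-41708625 on the plus strand, the CEACAM6 stretch chr19:41755280-41755529 on the plus strand and the CEACAM1 stretch chr19:42528482-42528731 on the minus strand, each written from 5′ to 3′.
CEACAM5: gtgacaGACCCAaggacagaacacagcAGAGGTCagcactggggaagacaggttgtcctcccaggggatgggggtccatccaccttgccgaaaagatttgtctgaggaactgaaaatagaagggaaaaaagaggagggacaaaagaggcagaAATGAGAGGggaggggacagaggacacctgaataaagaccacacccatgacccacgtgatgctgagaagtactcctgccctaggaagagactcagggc
CEACAM6: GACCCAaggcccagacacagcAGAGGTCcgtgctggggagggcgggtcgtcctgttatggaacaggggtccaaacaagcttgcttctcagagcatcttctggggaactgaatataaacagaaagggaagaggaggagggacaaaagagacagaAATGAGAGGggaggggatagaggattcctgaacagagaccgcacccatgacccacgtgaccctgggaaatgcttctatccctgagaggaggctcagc
CEACAM1: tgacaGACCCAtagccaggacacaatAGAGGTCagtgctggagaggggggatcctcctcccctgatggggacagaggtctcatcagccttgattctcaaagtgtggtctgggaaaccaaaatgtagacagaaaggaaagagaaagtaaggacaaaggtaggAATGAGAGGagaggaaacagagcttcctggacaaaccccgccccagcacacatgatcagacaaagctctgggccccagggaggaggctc
Aligned in pairs, CEACAM5 and CEACAM6 were identical at 73.6% of alignment columns, CEACAM6 and CEACAM1 at 67.6% and CEACAM5 and CEACAM1 at 63.5%. The same alignment of each CEACAM stretch with that of MUC1, a gene of another family, gave 45.2% to 48.3%. Of the 3 CEACAM genes, CEACAM5 and CEACAM6 were lower at both steps. So was MUC1, whose stretch was identical to theirs at 46.7% and 48.3% of columns. Whether upstream sequence bears on these levels was not tested, and with so few genes this is a description.

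In MUC1, the same window is shown for an E-box, the CAGGTG motif read by the ZEB and SNAI repressors, which in capitals on the strand shown reads CACCTG. The window is chr1:155192916-155193165 on the minus strand of GRCh38.p14, written from 5′ to 3′.
MUC1: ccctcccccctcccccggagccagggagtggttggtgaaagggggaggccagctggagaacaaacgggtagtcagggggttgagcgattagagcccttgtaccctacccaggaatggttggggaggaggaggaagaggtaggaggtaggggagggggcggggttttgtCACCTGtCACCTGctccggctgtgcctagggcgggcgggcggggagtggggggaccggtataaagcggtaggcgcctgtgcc
Motifs were searched as exact letters on both strands. CAGGTG occurred at 2 places in the MUC1 window, starting at positions -82 and -75 from the start site, and at 1 place in CEACAM5, at -74, while 17.5% of the 35116 promoters in the table held it in the same window. GGGCGG, the letters read by SP and KLF factors, occurred at 4 places in MUC1, 3 of them overlapping each other, and at 1 each in MUC16, CEACAM1 and CEACAM6, and was held by 42.6% of promoters. TGANTCA, the AP-1 motif, occurred in MUC13 alone of the 6 and was held by 6.57% of promoters. CAGGAAG, an ETS motif, occurred once each in MUC13, MUC16 and CEACAM1 (10.5% of promoters), and TGTTTNC, a forkhead motif, once in CEACAM1 (15.5% of promoters). CTCAAG, the NKX2-1 motif (10.4% of promoters), and TTCNNNGAA, the STAT motif (6.57% of promoters), were in none of the 6 windows, which says only that those letters are not there.

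For each of the 7 genes that reached 5 FPKM in at least 1 library, the 3 genes nearest in the pair of log2 differences at the 2 steps were taken from 10053 genes. This is a likeness over 3 libraries and says nothing of shared control. CEACAM1 lay nearest to SP110, IRF7 and NCOA7, at distances of 0.063 to 0.075 on the log2 scale. IRF7, an interferon regulatory factor, stood at 15.0 FPKM in dual-resistant cells, 18.2 FPKM in erlotinib-resistant cells and 69.0 FPKM in vehicle cells. CEACAM5 lay nearest to CEACAM6, at a distance of 0.549, then to the complement gene CFB and C8orf4. CEACAM6 lay nearest to PRSS8, a membrane serine protease, at 0.431, then to CEACAM5 and SOX2. MUC1 lay nearest to HCP5, FXYD3 and HPN, a membrane serine protease, at 0.034 to 0.168.

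Among the mucins lower in dual-resistant cells alone, MUC20 lay nearest to ETV5, PDE9A and C1orf172, at 0.043 to 0.108. ETV5, an ETS factor whose expression follows ERK signalling, stood at 2.88 FPKM in dual-resistant cells, 18.5 FPKM in erlotinib-resistant cells and 21.0 FPKM in vehicle cells. MUC16 lay nearest to RAB17, FAM84B and IL36RN, at 0.041 to 0.081. The nearest to MUC5B were S100A14, at 0.500, the epithelial splicing regulator ESRP1, at 0.840, and UPP1, at 0.870.

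Of the other genes listed as mucins, MUC4, CD164 and OVGP1 were lowest in dual-resistant and highest in vehicle cells in the deposited values. Only MCAM, listed by name, was the reverse. MUC4, a membrane mucin that can associate with ERBB2 and lies next to MUC20, stood at 1.27 FPKM in dual-resistant cells, 3.82 FPKM in erlotinib-resistant cells and 7.34 FPKM in vehicle cells, with a log2 difference of -1.88 for dual-resistant minus vehicle. MCAM, an adhesion molecule of the immunoglobulin superfamily also named as a mucin, went the other way, at 209.8 FPKM in dual-resistant cells, 17.3 FPKM in erlotinib-resistant cells and 14.4 FPKM in vehicle cells. The sialomucin CD164 stood at 114 FPKM in dual-resistant cells, 121 FPKM in erlotinib-resistant cells and 178 FPKM in vehicle cells. The oviduct glycoprotein OVGP1 stood at 2.76 FPKM in dual-resistant cells, 3.74 FPKM in erlotinib-resistant cells and 4.01 FPKM in vehicle cells, within the limit in all comparisons, as was CD164. Of 13 genes listed as membrane mucins and found in the deposited values, 6 did not reach 1 FPKM in any library, the highest at 0.433 FPKM. Of 6 genes listed as secreted mucins 4 did not, the highest at 0.0224 FPKM.

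In the CEACAM family, 4 of 13 genes reached 1 FPKM, and the highest of the other 9 was at 0.508 FPKM. Besides CEACAM1, CEACAM5 and CEACAM6, CEACAM19 reached it, at 0.739 FPKM in dual-resistant cells, 1.25 FPKM in erlotinib-resistant cells and 2.66 FPKM in vehicle cells, with a log2 difference of -1.07 for dual-resistant minus vehicle, which fell within the limit with equal FPKM sums. The pregnancy-specific glycoproteins, the placental branch of the family on the same chromosome, differed from it in dual-resistant cells. PSG5 stood at 13.9 FPKM in dual-resistant cells, 0.684 FPKM in erlotinib-resistant cells and 6.25 FPKM in vehicle cells. In erlotinib-resistant relative to vehicle cells PSG5 was lower, by a log2 difference of -2.11, as were CEACAM1, CEACAM5 and CEACAM6. It was higher in dual-resistant than in erlotinib-resistant cells by a log2 difference of 3.15, beside the 10.1% of all genes that were higher. PSG1 stood at 1.29 FPKM in dual-resistant cells, 0.208 FPKM in erlotinib-resistant cells and 0.101 FPKM in vehicle cells, and so passed the filter through dual-resistant cells alone. Its log2 difference for dual-resistant minus erlotinib-resistant was 0.93, within the limit, which it passed with 0.1 FPKM added. The PSG1 row covers 150597 bases, while RefSeq gives the gene 13250 bases on GRCh38. Whether fragments of other pregnancy-specific glycoprotein genes entered that row was not tested. Relative to vehicle cells, both were higher in dual-resistant cells, PSG5 by 1.04 and PSG1 by 1.06, each just past the limit. The other 8 of 10 did not reach 1 FPKM.

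**Figure D3:**
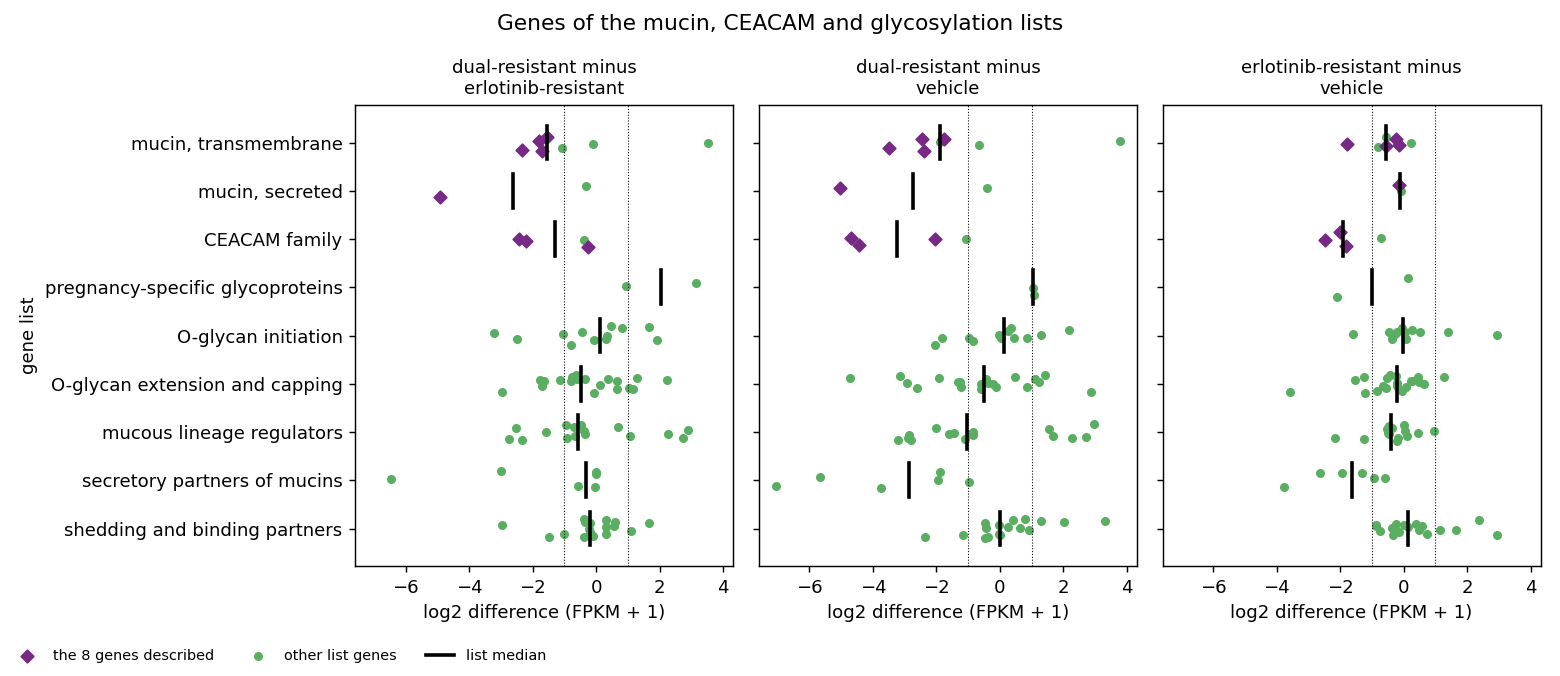
Log2 differences of FPKM + 1 for the genes compared in each list, in 3 panels by comparison, with diamonds for the 8 genes described, points for other genes, black bars for list medians and dotted lines at the limits of 1. The diamonds lie left of 0 in all panels. MCAM, an adhesion molecule also named as a mucin, lies at the right end of the membrane mucin list in dual-resistant cells. The enzymes of O-glycan initiation spread to both sides around medians of 0.11 (left), 0.14 (middle) and 0.00 (right).

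Genes listed for the building of sugar chains differed in both directions. Of the GALNT enzymes, which place the first sugar on serine or threonine, 2 of 12 were higher and 3 lower in dual-resistant than in erlotinib-resistant cells. Over all genes, 10.1% were higher and 7.22% lower. The median of the 12 was 0.11, against -0.03 over all genes. Against vehicle cells, 2 were higher and 2 lower in dual-resistant cells, where 11.0% of all genes were higher and 10.4% lower. In erlotinib-resistant cells 2 were higher and 1 lower than in vehicle cells, where 3.81% of all genes were higher and 6.03% lower. With so few genes these counts are a description. GALNT3 stood at 3.04 FPKM in dual-resistant cells, 36.9 FPKM in erlotinib-resistant cells and 13.3 FPKM in vehicle cells. GALNT2 stood at 163, 42.3 and 35.1 FPKM in the same order, and so was highest where GALNT3 was lowest. GALNT9 stood at 1.21 FPKM in dual-resistant cells, 11.5 FPKM in erlotinib-resistant cells and 0.624 FPKM in vehicle cells, with its peak in the erlotinib-resistant population. GALNT4 stood at 2.31 FPKM in dual-resistant cells, 3.53 FPKM in erlotinib-resistant cells and 12.6 FPKM in vehicle cells.

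Of 20 genes listed for extending or capping sugar chains, 4 were higher and 8 lower in dual-resistant than in vehicle cells (median -0.50, against -0.01 over all genes). Over all genes, 11.0% were higher and 10.4% lower. The list was not limited to enzymes that act on mucins, and it holds FUT8, C1GALT1C1, ST6GAL1 and CHST6. Of these, ST6GAL1 and CHST6 were among those lower, by log2 differences of -1.90 and -1.31. In dual-resistant relative to erlotinib-resistant cells 4 of the 20 were higher and 5 lower, where 10.1% of all genes were higher and 7.22% lower. In erlotinib-resistant relative to vehicle cells 1 was higher and 4 lower, where 3.81% of all genes were higher and 6.03% lower. Of the 20, 3 passed the filter through 1 library alone, ST3GAL6 through dual-resistant cells, B3GNT6 through erlotinib-resistant cells and ST6GALNAC2 through vehicle cells, and B3GNT6 was the 1 that was higher in erlotinib-resistant than in vehicle cells. ST6GALNAC1, the sialyltransferase that makes the sialyl-Tn antigen, stood at 0.127 FPKM in dual-resistant cells, 1.50 FPKM in erlotinib-resistant cells and 28.7 FPKM in vehicle cells, and was lower at both steps, by a log2 difference of -3.57 for erlotinib-resistant minus vehicle and -1.15 for dual-resistant minus erlotinib-resistant. B3GNT3, which extends chains, stood at 2.72 FPKM in dual-resistant cells, 27.8 FPKM in erlotinib-resistant cells and 32.2 FPKM in vehicle cells, so its difference lay in dual-resistant cells, as for MUC5B. The branching enzymes went opposite ways. GCNT3, the form of mucus-secreting epithelia, stood at 2.73 FPKM in dual-resistant cells, 11.2 FPKM in erlotinib-resistant cells and 27.3 FPKM in vehicle cells, whereas GCNT1 stood at 15.9, 2.64 and 1.33 FPKM in the same order.

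Among listed regulators of the mucous and airway lineage, 5 of 16 were higher and 8 lower in dual-resistant than in vehicle cells (median -1.03). Over all genes, 11.0% were higher and 10.4% lower. Of the 16, all but the receptor NOTCH2 are transcription factors, and NOTCH2 was among those higher, by a log2 difference of 1.66. In erlotinib-resistant relative to vehicle cells 2 were lower and none higher, where 6.03% of all genes were lower and 3.81% higher. Relative to erlotinib-resistant cells, 4 were higher and 4 lower in dual-resistant cells, where 10.1% of all genes were higher and 7.22% lower. EHF, an epithelial ETS factor, stood at 2.61 FPKM in dual-resistant cells, 23.0 FPKM in erlotinib-resistant cells and 32.5 FPKM in vehicle cells. KLF4 stood at 4.55 FPKM in dual-resistant cells, 31.3 FPKM in erlotinib-resistant cells and 40.4 FPKM in vehicle cells. HES1, a target of Notch, stood at 9.75 FPKM in dual-resistant cells, 16.6 FPKM in erlotinib-resistant cells and 77.7 FPKM in vehicle cells, and so was lower already in erlotinib-resistant cells. CREB3L1 went the other way, at 8.02 FPKM in dual-resistant cells, 0.228 FPKM in erlotinib-resistant cells and 0.151 FPKM in vehicle cells. It passed the filter through dual-resistant cells alone, as did CREB3L4, at 5.60 FPKM there and listed at 0 in the others, which is named after its values were seen.

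Of genes secreted or transported with mucins, 5 of 6 were lower in dual-resistant than in vehicle cells and none higher, but 4 of these 6 passed the filter through vehicle cells alone and had to be lower elsewhere, among them CLCA2 and FCGBP. Over all genes, 10.4% were lower and 11.0% higher in that comparison. Relative to erlotinib-resistant cells, 2 of the 6 were lower in dual-resistant cells, where 7.22% of all genes were lower. In erlotinib-resistant relative to vehicle cells 4 were lower, where 6.03% of all genes were lower. CLCA2 stood at 0.0273 FPKM in dual-resistant cells, 0.0235 FPKM in erlotinib-resistant cells and 2.96 FPKM in vehicle cells. FCGBP, a mucus protein, stood at 0.189 FPKM in dual-resistant cells, 0.765 FPKM in erlotinib-resistant cells and 3.35 FPKM in vehicle cells. AGR2, a disulfide isomerase needed for mucin assembly in the mouse intestine, stood at 1.07 FPKM in dual-resistant cells, 180.2 FPKM in erlotinib-resistant cells and 273 FPKM in vehicle cells. PIGR, the transporter of secretory antibodies, stood at 0.554 FPKM in dual-resistant cells, 11.6 FPKM in erlotinib-resistant cells and 77.6 FPKM in vehicle cells. AGR2 thus shared the late step of MUC5B, while PIGR was lower at both steps as CEACAM5 was.

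Of 17 proteases, lectins and signalling partners of membrane mucins and CEACAM proteins, 3 were higher and 2 lower in dual-resistant than in vehicle cells (median 0.00), where 11.0% of all genes were higher and 10.4% lower. With equal FPKM sums 5 were higher and 1 lower. In dual-resistant relative to erlotinib-resistant cells 2 were higher and 3 lower, where 10.1% of all genes were higher and 7.22% lower. In erlotinib-resistant relative to vehicle cells 4 were higher and none lower, where 3.81% of all genes were higher and 6.03% lower. LGALS3, a galectin that binds MUC1 and other mucins, stood at 119.8 FPKM in dual-resistant cells, 337 FPKM in erlotinib-resistant cells and 623 FPKM in vehicle cells. LGALS1, another galectin, went the other way, at 439 FPKM in dual-resistant cells, 137 FPKM in erlotinib-resistant cells and 42.9 FPKM in vehicle cells. EGFR stood at 698 FPKM in dual-resistant cells, 885 FPKM in erlotinib-resistant cells and 171 FPKM in vehicle cells, so both resistant populations had less MUC1 and more EGFR than vehicle cells.

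Markers of other cell types and of epithelium were read beside these genes. VIM, the mesenchymal filament protein, stood at 414 FPKM in dual-resistant cells, 23.3 FPKM in erlotinib-resistant cells and 7.04 FPKM in vehicle cells. The 6 mesenchymal markers summed to 421 FPKM in dual-resistant cells, 25.8 FPKM in erlotinib-resistant cells and 10.9 FPKM in vehicle cells, with VIM the largest part in each. Of these 6, COL1A2 and DCN stayed under 0.1 FPKM in every library, and PDGFRB was listed at 0 in erlotinib-resistant and vehicle cells. The 8 lung and airway epithelial markers summed to 1811 FPKM in dual-resistant cells, 3408 FPKM in erlotinib-resistant cells and 3731 FPKM in vehicle cells, with the alveolar SFTPC listed at 0 in all 3. The adhesion protein EPCAM stood at 41.1 FPKM in dual-resistant cells, 345 FPKM in erlotinib-resistant cells and 306 FPKM in vehicle cells. CDH1, or E-cadherin, stood at 22.8, 194 and 172 FPKM in the same order. The keratin KRT18 stood at 424 FPKM in dual-resistant cells, 993 FPKM in erlotinib-resistant cells and 1115 FPKM in vehicle cells. KRT8 stood at 542, 573 and 905 FPKM in the same order. Of 5 leukocyte markers CD68, a lysosomal protein, alone reached 1 FPKM, at 66.5 FPKM in dual-resistant cells, 115 FPKM in erlotinib-resistant cells and 45.5 FPKM in vehicle cells, and CD3E was listed at 0 in all 3. The 3 endothelial markers summed to at most 0.636 FPKM. The part of these markers in the levels of the mucins and CEACAM genes was not tested.

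Neighbouring genes on the chromosomes were examined to see whether whole regions were lower. Within 500 kb of the 8 genes lay 111 other genes compared, of which 7 were higher and 13 lower in dual-resistant than in vehicle cells, with a median of 0.03, where 11.0% of all genes were higher and 10.4% lower. With equal FPKM sums 12 were higher and 11 lower, so the balance between the directions depends on the scaling. In dual-resistant relative to erlotinib-resistant cells, 15 of the 111 were higher and 11 lower, where 10.1% of all genes were higher and 7.22% lower. In erlotinib-resistant relative to vehicle cells 3 of the 111 were higher and 7 lower, where 3.81% of all genes were higher and 6.03% lower. None of the 17 neighbours of CEACAM5 and none of the 17 of CEACAM6 was lower in any comparison, although 3 around each were higher in dual-resistant cells than in either other population. The largest difference there was that of AXL, a receptor tyrosine kinase gene, at 44.4 FPKM in dual-resistant cells, 1.23 FPKM in erlotinib-resistant cells and 0.555 FPKM in vehicle cells. CEACAM1 had 1 lower neighbour of 11 in dual-resistant relative to vehicle cells, the mucosal chemokine gene CXCL17, at 0.0672 FPKM in dual-resistant cells, 1.33 FPKM in erlotinib-resistant cells and 19.5 FPKM in vehicle cells. Around MUC1, 5 of 27 neighbours were lower in dual-resistant than in vehicle cells and none higher, beside 10.4% and 11.0% of all genes. Around MUC20, 3 of 12 were lower, which were MUC4, APOD and the unnamed transcript inside MUC20. HEG1, beside MUC13, was higher by a log2 difference of 3.52 where MUC13 was lower.

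**Figure D4:**
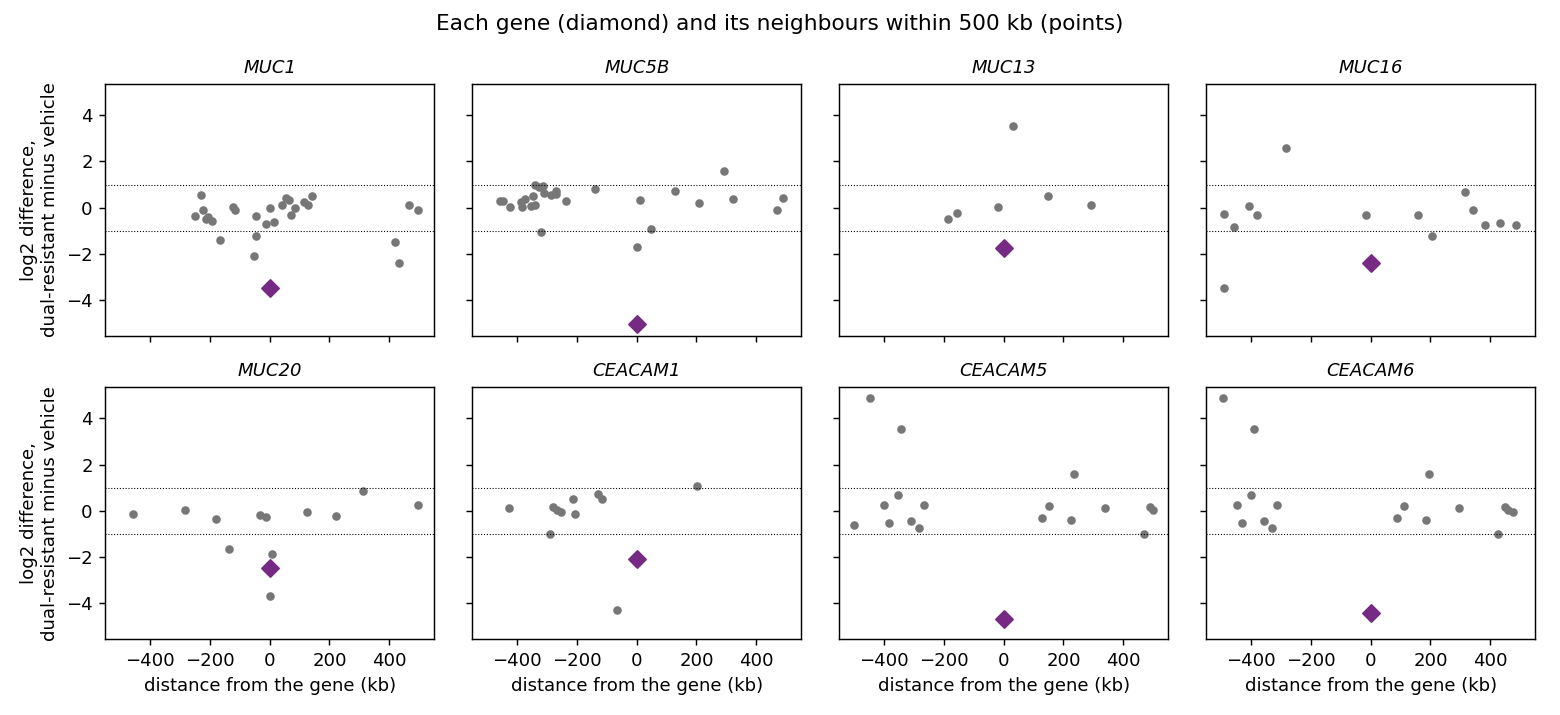
Log2 difference of FPKM + 1, dual-resistant minus vehicle, for each of the 8 genes (diamond) and for its neighbours within 500 kb (points) by distance in kb, with dotted lines at the limits of 1. The diamond is the lowest symbol in its panel for 5 of the 8 genes, the exceptions being MUC16, MUC20 and CEACAM1, and most points lie between the limits.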

How the data were processed

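RNA sequencing gave 1 library for each of 3 populations. The deposited values are FPKM per gene as the authors made them. Per the submitters' processing notes, TopHat 1.3 and Cufflinks 1.3 were used with GRCh37. The annotation, strandedness and handling of multiply matching fragments are unstated in the sources at hand. There are 31402 rows. Rows of 1 symbol were summed (415 symbols), and missing cells (25 to 36 per library) were left out. Starts were taken to count from 0 and are given from 1.

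Differences were log2(FPKM + 1), which understates those of low genes, over genes that reached 1 FPKM in 1 or more libraries. With 1 library per group there is no test, p-value or standard error. Calls are by size, at a log2 difference of 1. Depth was estimated from percentile 1 of FPKM times length in single-exon coding genes of 1 to 5 kb. Protein sequences were not used here.

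Named were the 8 genes, other mucins and CEACAM relatives with at least 1 FPKM, up to 4 genes per other list with the largest difference and none at 0, the 3 nearest genes in pattern and the neighbour with the largest difference per region, of which some are left out. The genes and the 9 lists were chosen with earlier results of these data known. The difference step was tested on simulated data. Python 3.11.15, pandas 2.3.3, numpy 2.4.6, Biopython 1.88 (pairwise alignment; match 2, mismatch -1, gap opening -5, gap extension -1), MAFFT 7.526 and matplotlib 3.10.9 were used. Alternatives were another added constant, no filter and a filter of 5 FPKM, 2 scalings, the highest row per symbol and leaving out genes listed at 0.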

Additional observations from a re-analysis of the deposited data

How the results depend on the processing

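All 24 log2 differences of the 8 genes stayed on the same side of the limit under 6 alternatives: 0.1 FPKM added, no filter, equal sums, a median of 0, the highest row per symbol, and genes listed at 0 left out. Their direction was also kept, except with equal sums, under which 2 changed sign within the limit for erlotinib-resistant minus vehicle, MUC5B to 0.03 and MUC20 to 0.02. The filter of 5 FPKM kept 21 of them, all on the same side, and left out MUC13. With the FPKM sums of the libraries made equal, the summed level of the 8 genes was 26.4 FPKM in dual-resistant cells, 143 in erlotinib-resistant cells and 348 in vehicle cells. That scaling moved the median of all genes by 0.14 for erlotinib-resistant minus vehicle and 0.24 for dual-resistant minus vehicle. With 0.1 FPKM added, 2031 genes were called in erlotinib-resistant minus vehicle, against 1317 with 1 FPKM added. Of the counts of genes called per list, 5 moved by over 1.5 times under the filter of 5 FPKM, by its construction, since fewer genes were compared, and 1 with 0.1 FPKM added. The total counts of neighbouring genes called, tried under the same alternatives after the data were seen, stayed within 1.5 times, but those higher for dual-resistant minus vehicle went to 12 with equal sums, against 7, and those higher for erlotinib-resistant minus vehicle to 5 with 0.1 FPKM added, against 3. Scaling to equal sums kept 2 of the 3 genes nearest to MUC16 in pattern and all 3 for the other 6 genes. No paired analysis was possible because each group has 1 library, and for the same reason no replicate could be left out. The values under 1 FPKM rest on about 59.1 to 96.7 fragments by a rough estimate, and no error between libraries can be given.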
